A study of Mus musculus with 6 samples.

Results

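The 36 genes described here serve glucose uptake, glycolysis, lactate export and the HIF-1 response. They were taken by gene symbol from a list of transporters, enzymes, regulators and targets, a rule that uses no measured value, and the list itself was drawn up with earlier results of these data known. All 36 were found among the 34745 genes of the count table, each had reads in all 6 libraries, and all 36 were among the 12537 genes that passed the filter on low counts and were tested. RNA was sequenced from monocytic myeloid-derived suppressor cells (M-MDSCs), which are immature monocytic cells that restrain T cells. They were grown from mouse bone marrow in culture with GM-CSF and IL-6 and then sorted, and each genotype gave 3 libraries. The mTOR-/- cells came from Lyz-mTOR mice, in which floxed mTOR alleles are deleted by a Cre recombinase expressed from the lysozyme gene in myeloid cells. The WT cells came from wild-type C57BL/6 mice, for which neither Cre nor floxed alleles are described, so the Cre insertion and the loss of mTOR cannot be told apart. The paper does not state the strain background of the Lyz-mTOR mice. The ages of the mice are not given.

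Glycolysis splits glucose into pyruvate in the cytosol, and fast-growing or activated myeloid cells turn much of that pyruvate into lactate and export it. HIF-1 is a pair of transcription factors, HIF-1alpha (Hif1a) and ARNT, which binds a short core motif in DNA and raises many genes of glycolysis. In the presence of oxygen, prolyl hydroxylases encoded by the Egln genes mark HIF-1alpha, and the VHL protein then directs its degradation. The mTOR kinase is known to raise the synthesis of HIF-1alpha protein, which RNA counts do not measure.

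The libraries held 12317507 to 12903191 counts in the mTOR-/- group and 14066578 to 14768126 in the WT group, so that 3 counts correspond to 0.203 to 0.244 CPM. CPM are counts scaled to a common library size with TMM factors. Values of single libraries are given in the order of replicates 1, 2 and 3. Counts of Mtor did not show the deletion: they were 883, 983 and 908 across mTOR-/- replicates and 980, 875 and 929 across WT replicates (log2 fold change 0.15, adjusted p = 0.442). Whether the deleted exons lost reads cannot be read from counts per gene. The paper reports that it verified the loss of mTOR in MDSCs, in a supplementary figure. On the first principal component of all tested genes, mTOR-/- replicate 3 lay at -59.72, mTOR-/- replicates 1 and 2 at -16.73 and -11.09, and the WT libraries between 23.83 and 32. Some cell type markers differed between the genotypes too. The summed level of 6 mast cell and basophil markers was 232 to 281 CPM across mTOR-/- replicates and 862 to 1037 CPM across WT replicates, with Mcpt4 at 0. Most of this gap came from Cpa3, with a mean of 134.6 against 693.6 CPM. Cpa3, Mcpt8 and Kit were called, all lower, while Fcer1a, not called, had a log2 fold change of 0.45. The 7 monocytic markers summed to 2079 to 2550 against 3676 to 5302 CPM, none of the 7 being at 0. Lyz2, the lysozyme gene of the Lyz-Cre driver, made up most of that gap, and without it the other 6 summed to 1176 to 1577 against 1348 to 1505 CPM, which overlap. Of the 7, Lyz2 and Ly6c2 fell and Csf1r rose. The 10 neutrophil markers summed to 2385 to 2707 against 2113 to 2440 CPM. Of the 4 called, Ly6g and S100a8 rose and Ngp and Ltf fell. Mmp8, not called, had the highest level (mean 1565.3 against 1237.6 CPM). The paper defines M-MDSCs by surface CD11b, high Ly6C and no Ly6G. In RNA, the log2 fold change was 2.26 for Ly6g (mean 13.3 against 2.77 CPM) and -1 for Ly6c2 (87.3 against 174.4 CPM). Both changes were larger than that of any of the 36 genes. Ly6c1 (0.28) and Itgam (-0.16) were not called. Dendritic markers summed to 193 to 264 against 66.9 to 152 CPM. Among them Itgax had the highest level and Ccr7 alone was called, both higher, while Flt3, at means of 1.48 and 2.04 CPM, was lower. Macrophage markers summed to 535 to 657 against 662 to 744 CPM, with none of the 6 called. Adgre1 was lower (mean 481.8 against 614.2 CPM) and Vcam1 higher (123.5 against 87.9 CPM). Lymphocyte markers were at 1.47 to 4.28 against 1.42 to 2.25 CPM, with Cd3e and Ncr1 at 0, and erythroid markers at 2.12 to 3.82 against 6.68 to 11.4 CPM. The 9 cell cycle genes summed to 700.1 to 787 against 781 to 1029.9 CPM, and 2 were called, Cdk1 and Rrm2, both lower. Mitochondrial transcripts took 1.28% to 2.26% of counts in mTOR-/- and 0.832% to 1.63% in WT. In bulk RNA, fewer cells of a type and less RNA per cell cannot be told apart. For Lyz2, the Cre insertion of the Lyz-mTOR mice cannot be told apart from these either. The part of these marker shifts in the values of the 36 genes was not tested.

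None of the 36 genes was a differentially expressed gene between mTOR-/- and WT M-MDSCs. With edgeR's quasi-likelihood test and Benjamini-Hochberg adjustment over all tested genes, 0 of 36 passed an adjusted p of 0.05 with a fold of at least 2, where 1.69% of all tested genes did. Without the fold threshold the count was also 0 of 36, against 4.04% of all tested genes. At an unadjusted p under 0.05 there were 7 members, or 19.4% against 21.2% of all tested genes. Of these, 5 were lower in the mTOR-/- cells (13.9% of members against 9.52% of tested genes) and 2 were higher (5.56% against 11.7%). DESeq2's Wald test, which called 9.13% of all genes at an adjusted p under 0.05, called 4 members (P4ha1, Ldha, Ndrg1 and Slc2a6), and none of them reached a 2-fold change, where 2.85% of all genes passed both thresholds. The exact test of edgeR, which called 7.98% of all genes, called P4ha1 and Ldha, again with 0 members at a 2-fold change (3.02% of all genes). With the replicate number as a block, 0 members were called at an adjusted p under 0.05, beside 2.23% of all genes. The p-values measure the spread between these libraries, since the labels do not say that each came from its own mouse.

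The changes were small. The log2 fold changes of the members (mTOR-/- over WT) ran from -0.47 to 0.42, with 22 below 0 and 14 above. Their median was -0.061, beside 0.0049 over all tested genes, of which 49.4% were below 0. The 95% interval of the change lay within a 2-fold change in either direction for 35 of 36 members, where this held for 71.4% of tested genes. The exception was Ldhb, the heart-type lactate dehydrogenase subunit, which had only 9 to 25 counts. For 26 members the interval lay within 1.5-fold. The plot of changes shows every interval by role.

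**Figure D1:**
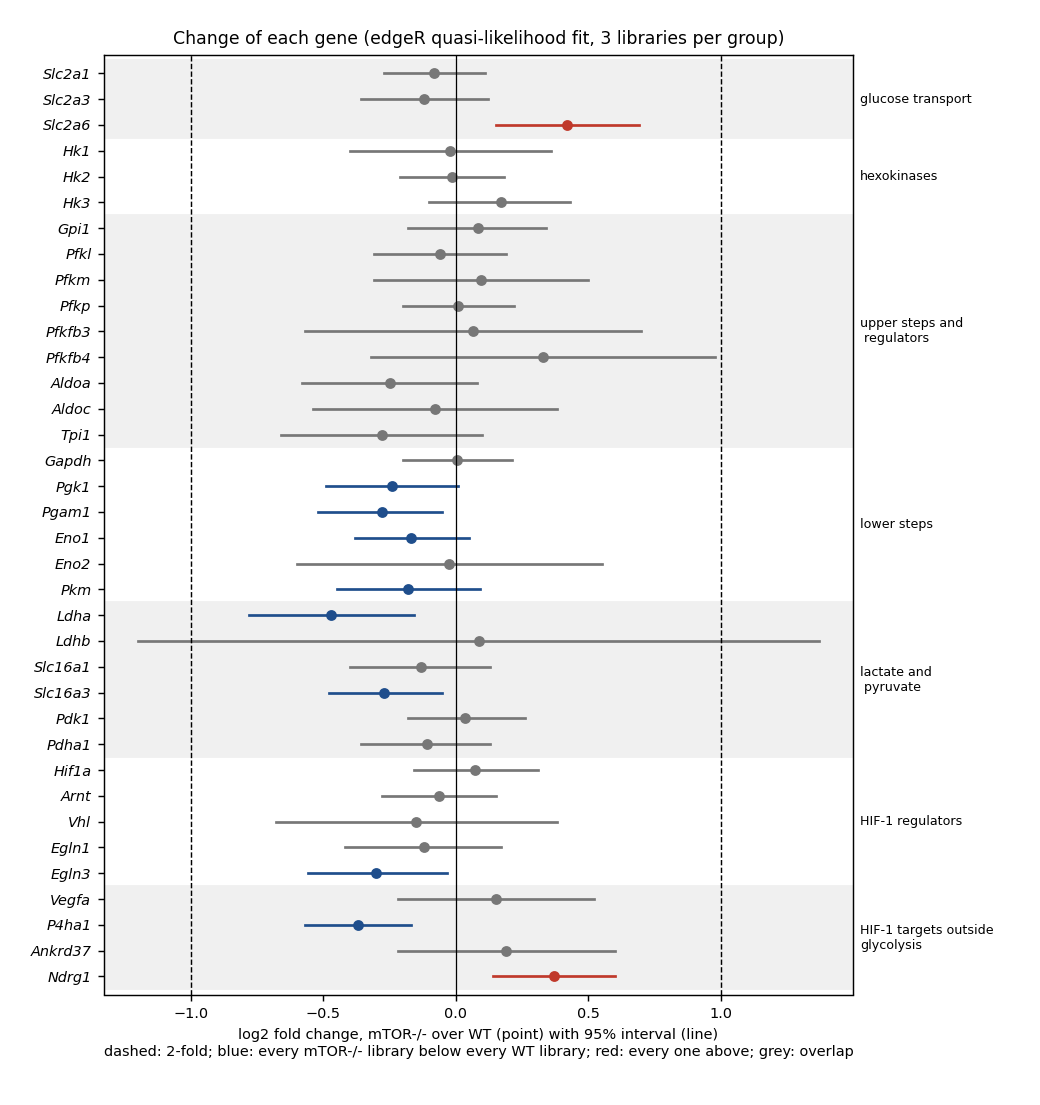
Log2 fold change (x axis, mTOR-/- over WT) of each of the 36 genes by role (y axis), with points for the edgeR estimate and lines for its 95% interval over 3 libraries per group; dashed lines mark 2-fold. Blue genes had every mTOR-/- library below every WT library (8 genes), red genes every one above (2 genes), and only the interval of Ldhb crosses the dashed lines.

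Every mTOR-/- library lay below every WT library for 8 members: Pgk1, Pgam1, Eno1, Pkm, Ldha, Slc16a3, Egln3 and P4ha1. That is 22.2% of the members, beside 13.9% of all tested genes. Every mTOR-/- library lay above every WT library for 2 members, Slc2a6 and Ndrg1, or 5.56% beside 14.5%. The genes given in full below are the most highly expressed member of each role. P4ha1, Ndrg1, Slc2a6, Slc16a3, Pgam1 and Egln3 and the genes that mTOR-/- replicate 3 sets apart were added after their values were seen.

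**Figure D2:**
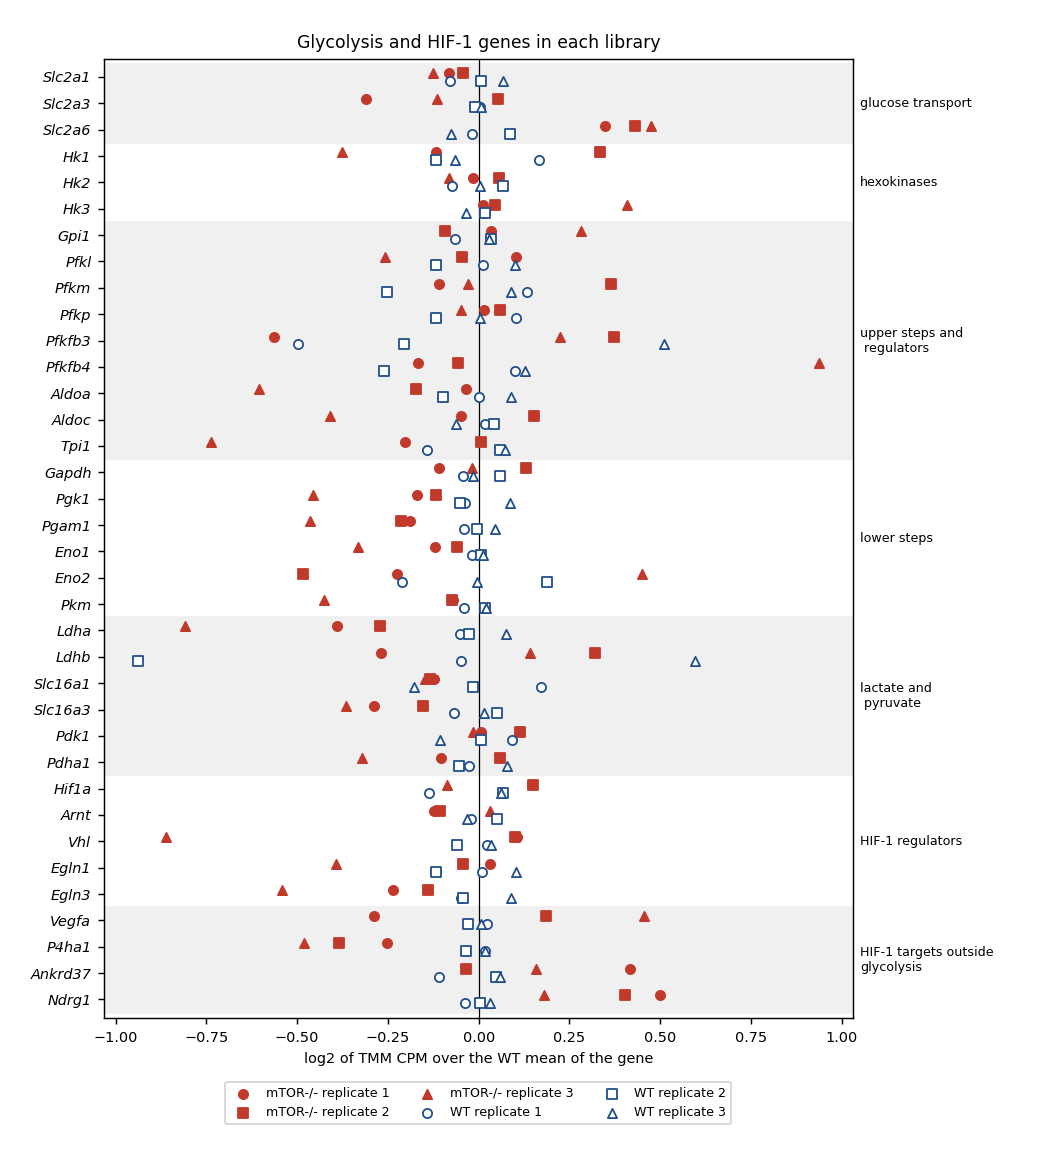
Level of each of the 36 genes in each of the 6 libraries, relative to the mean of the WT libraries on the log2 scale; filled red symbols are the mTOR-/- replicates and open blue symbols the WT replicates. Ldha, P4ha1 and Slc16a3 have all red symbols to the left of the blue ones, Slc2a6 and Ndrg1 all to the right, and mTOR-/- replicate 3 lies far from the other mTOR-/- libraries for Vhl and Pfkfb4.

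Glucose enters these cells through transporters of the Slc2a family. Slc2a1, which encodes the main glucose transporter GLUT1 (chromosome 4, 119108711 to 119137983 on mm10), was at 232.9, 239 and 226 CPM across mTOR-/- replicates and at 234, 248 and 258 CPM across WT replicates. The groups overlapped, with a log2 fold change of -0.08 ± 0.09 (SE) and an adjusted p of 0.608. Slc2a3, encoding the high-affinity transporter GLUT3, was at 119, 153 and 136 CPM against 148, 147 and 148 CPM, also overlapping. Slc2a6 encodes GLUT6, a hexose transporter of intracellular membranes. It was at 39.3, 41.6 and 42.9 CPM across mTOR-/- replicates and at 30.5, 32.8 and 29.3 CPM across WT replicates. The groups did not overlap, and the log2 fold change of 0.42 ± 0.12 (SE) had an adjusted p of 0.092 by edgeR's quasi-likelihood test. Over the 13 alternatives the adjusted p ran from 0.0492, by DESeq2, to 0.322, and 1 of them passed.

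Hexokinases trap glucose in the cell as glucose 6-phosphate. The most abundant of them was Hk3, the isoform typical of myeloid cells (chromosome 13, 55005985 to 55021385), at 680.3, 695 and 895 CPM across mTOR-/- replicates and 682, 682 and 659 CPM across WT replicates. The value of mTOR-/- replicate 3 stood far above the rest, and without it the log2 fold change of 0.17 ± 0.12 (SE) became 0.02. Hk2, the inducible isoform and a textbook HIF-1 target, was at 206 to 226 CPM across mTOR-/- replicates and 207 to 228 CPM across WT replicates. Its log2 fold change was -0.01, with a 95% interval of -0.21 to 0.18. Hk1, the broadly expressed isoform, lay between 161 and 263 CPM across mTOR-/- replicates and between 192 and 234 CPM across WT replicates.

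The upper steps of glycolysis, with their regulators, had a median log2 fold change of 0.0089 over 9 genes, and for none of them were the groups apart. Aldoa, the aldolase that cleaves fructose 1,6-bisphosphate (chromosome 7, 126795234 to 126800751), was at 1427, 1298 and 961 CPM across mTOR-/- replicates and at 1463, 1366 and 1556 CPM across WT replicates. The lowest value was that of mTOR-/- replicate 3, and the log2 fold change was -0.25 ± 0.15 (SE, adjusted p = 0.36), or -0.11 without that library. Tpi1, triosephosphate isomerase, behaved alike in that library, with 222.5 CPM against 322 and 373 CPM in the other mTOR-/- libraries and 337 to 391 CPM in WT. The phosphofructokinase genes Pfkl, Pfkm and Pfkp, whose enzyme commits sugar to glycolysis, had log2 fold changes of -0.06, 0.09 and 0.01. Pfkfb3, which makes the phosphofructokinase activator fructose 2,6-bisphosphate, varied widely within both groups, at 64.7, 124 and 112 CPM against 67.7, 82.8 and 136 CPM. Pfkfb4, of the same enzyme family, was at 12.8 and 13.8 CPM in mTOR-/- replicates 1 and 2, at 27.5 CPM in mTOR-/- replicate 3, and at 12 to 15.7 CPM in WT. Without replicate 3 its log2 fold change turned from 0.33 to -0.12. Gpi1, glucose 6-phosphate isomerase, was at 1121, 1026 and 1332 CPM against 1047, 1122 and 1116 CPM, with overlapping groups.

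The lower steps, from glyceraldehyde 3-phosphate to pyruvate, had a median log2 fold change of -0.17 over 6 genes, with no overlap between the groups for 4 of them, all lower in mTOR-/- cells, where 13.9% of all tested genes were lower without overlap. None passed the test. Pkm, the pyruvate kinase gene (chromosome 9, 59656368 to 59679375), was at 1907, 1904 and 1491 CPM across mTOR-/- replicates and at 1948, 2026 and 2032 CPM across WT replicates. Although no mTOR-/- library reached the lowest WT library, mTOR-/- replicates 1 and 2 were close to it, and the log2 fold change was -0.18 ± 0.12 (SE, adjusted p = 0.427), or -0.08 without replicate 3. Pgam1, phosphoglycerate mutase (chromosome 19, 41911871 to 41918664), was at 745, 731 and 614 CPM against 824.5, 845 and 875 CPM. Here all mTOR-/- libraries were clear of the WT range, with a log2 fold change of -0.28 ± 0.10 (SE), an adjusted p of 0.158, and -0.21 without replicate 3. Pgk1, phosphoglycerate kinase, and Eno1, enolase 1, had log2 fold changes of -0.24 and -0.17. Gapdh, often used as a reference gene, was at 299, 353 and 319 CPM against 313, 336 and 319 CPM, with a log2 fold change of 0.00 that took either sign under the alternatives tried. Reads of several of these genes may be shared with near-identical copies. Of the 100-base words in the longest coding transcript of Gapdh, 78% also occur in transcripts of other genes, and the shares for Pgk1, Eno1 and Pgam1 were 67%, 59% and 39.7%. In the count table, the copies Pgam1-ps1 and Pgam1-ps2 had 677 to 1165 counts per library and the Eno1 copy Eno1b 1331 to 2045. How such reads were assigned is not given in the sources used here, so the levels of these genes are uncertain.

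Ldha, which encodes the lactate dehydrogenase subunit that turns pyruvate into lactate (chromosome 7, 46841475 to 46855627), had the lowest log2 fold change of the 36 genes. Its level was 747.5, 811 and 559.5 CPM across mTOR-/- replicates and 944.5, 962 and 1032 CPM across WT replicates. Every mTOR-/- library was thus below every WT library, mTOR-/- replicate 3 being the furthest away. The mean was 706 ± 131 CPM (SD, n = 3) in mTOR-/- cells and 979.6 ± 46.3 CPM (SD, n = 3) in WT cells. The log2 fold change was -0.47 ± 0.14 (SE), with a 95% interval of -0.78 to -0.16 and an adjusted p of 0.0923 by edgeR's quasi-likelihood test. Of the 13 alternatives, 2 put it past the threshold, with adjusted p-values of 0.0163 by DESeq2 and 0.0331 by edgeR's exact test, and the highest adjusted p among them was 0.312. Without mTOR-/- replicate 3 it was -0.34 (adjusted p = 0.0677). Slc16a3, which encodes the lactate exporter MCT4 (chromosome 11, 120948480 to 120960868), was at 109, 119 and 103 CPM in mTOR-/- cells and at 127, 137 and 134 CPM in WT cells. Its groups did not overlap either, and the log2 fold change was -0.27 ± 0.10 (SE, adjusted p = 0.156). Slc16a1, encoding the related carrier MCT1, was at 61.8, 61.3 and 60.7 CPM against 75.8, 66.5 and 59.5 CPM. Pdk1, the kinase that switches off pyruvate dehydrogenase, and Pdha1, a subunit of that enzyme, had log2 fold changes of 0.04 and -0.11.

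Among the regulators of HIF-1, the RNA of Hif1a itself (chromosome 12, 73901375 to 73947530) was at 499, 500.2 and 425 CPM across mTOR-/- replicates and at 410.5, 472 and 470.3 CPM across WT replicates. The groups overlapped, with a log2 fold change of 0.07 ± 0.10 (SE), a 95% interval of -0.16 to 0.31 and an adjusted p of 0.727. Arnt, the partner subunit, had a log2 fold change of -0.06. Egln3, a prolyl hydroxylase whose own gene is raised by HIF-1 (chromosome 12, 54178981 to 54203860), was at 129, 138 and 104 CPM against 147, 147.5 and 161.5 CPM. No mTOR-/- library reached the WT range, and the log2 fold change was -0.30 ± 0.12 (SE, adjusted p = 0.189), or -0.19 without mTOR-/- replicate 3. Egln1, the main oxygen sensor of the family, had a log2 fold change of -0.12 with overlapping groups. Vhl was at 30.7 and 30.6 CPM in mTOR-/- replicates 1 and 2, at 15.7 CPM in mTOR-/- replicate 3 and at 29, 27.4 and 29.2 CPM in WT. That single library decided its direction, with log2 fold changes of -0.15 with it and 0.10 without it.

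The 4 HIF-1 targets outside glycolysis did not share a direction. P4ha1, a subunit of the enzyme that hydroxylates collagen (chromosome 10, 59323296 to 59373304), was at 283, 258 and 241 CPM across mTOR-/- replicates and at 341, 328 and 341 CPM across WT replicates. The groups were well apart, and this gene had the smallest p of the 36, with a log2 fold change of -0.37 ± 0.09 (SE), a 95% interval of -0.57 to -0.17 and an adjusted p of 0.0564. It passed under 4 of the 13 alternatives, with an adjusted p of 0.00822 by DESeq2, 0.0284 by edgeR's exact test, 0.0493 without a filter on low counts and 0.0494 with at least 10 counts in every sample. With a library left out the edgeR adjusted p was 0.0674 to 0.223, and none of these fits passed. Ndrg1, a stress-response gene induced by low oxygen (chromosome 15, 66929321 to 66969640), lay in the opposite direction, at 202, 189 and 162 CPM in mTOR-/- cells and 139, 143 and 146 CPM in WT cells. Its log2 fold change was 0.37 ± 0.10 (SE, adjusted p = 0.0809), and without mTOR-/- replicate 3, the lowest of the mTOR-/- libraries, it was 0.45 with an adjusted p of 0.0227. With any other library left out the adjusted p was 0.13 to 0.265, and by DESeq2 it was 0.0358. In the fit without replicate 3, 3.63% of all genes were called, and Ndrg1 was the only one of the 36. Vegfa, the vascular growth factor (chromosome 17, 46016993 to 46032377), was at 588, 818 and 987 CPM in mTOR-/- cells and at 730.4, 704 and 723 CPM in WT cells. The WT libraries lay inside the range of the mTOR-/- libraries, and the log2 fold change of 0.15 ± 0.16 (SE, adjusted p = 0.641) was -0.04 without replicate 3. Ankrd37, an ankyrin repeat gene known as a HIF-1 target, had a log2 fold change of 0.19 with overlapping groups.

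Of the 8 members lower in mTOR-/- cells without overlap, 7 had the HIF-1 core motif as ACGTG in a listed promoter. These were Pgk1, Pgam1, Pkm, Ldha, Slc16a3, Egln3 and P4ha1, while Eno1 lacked ACGTG. Of the members with overlapping groups, 14 had ACGTG and 11 did not. The alternative core GCGTG was present in Eno1, with 2 matches. Of those 11, Pfkl, Pfkp, Pfkfb4, Ldhb, Pdk1, Pdha1 and Arnt had GCGTG too, while Gpi1, Tpi1, Eno2 and Vhl had neither. These groups were formed from the measured values, and a link between the motif and the decrease was not tested. Promoters are shown for the 3 lowest log2 fold changes (Ldha, P4ha1 and Egln3) and for Slc2a6, which had the highest and lacked ACGTG. The choice thus rests on values already seen. The sequences are those of RefSeq on GRCm38.p6 from 250 bases before to 50 bases after a listed transcription start, 5′ to 3′ on the strand of the gene. Capitals mark the core ACGTG on either strand. For Ldha, 1 of the 2 listed promoters is shown (chr7:46845554-46845853, forward strand). It was picked by its number of ACGTG matches, the highest first, so its count is not that of a neutral example. Its start lies 4329 bases inside the deposited gene limits. The other windows are chr10:59323046-59323345 for P4ha1 (forward strand), chr12:54203825-54204124 for Egln3 (reverse strand) and chr2:27027949-27028248 for Slc2a6 (reverse strand).
Ldha: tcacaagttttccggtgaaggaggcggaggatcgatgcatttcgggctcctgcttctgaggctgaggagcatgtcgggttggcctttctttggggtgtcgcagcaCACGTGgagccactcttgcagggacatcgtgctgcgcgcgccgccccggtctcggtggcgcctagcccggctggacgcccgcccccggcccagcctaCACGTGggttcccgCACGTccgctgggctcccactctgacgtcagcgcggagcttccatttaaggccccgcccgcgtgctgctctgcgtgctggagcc
P4ha1: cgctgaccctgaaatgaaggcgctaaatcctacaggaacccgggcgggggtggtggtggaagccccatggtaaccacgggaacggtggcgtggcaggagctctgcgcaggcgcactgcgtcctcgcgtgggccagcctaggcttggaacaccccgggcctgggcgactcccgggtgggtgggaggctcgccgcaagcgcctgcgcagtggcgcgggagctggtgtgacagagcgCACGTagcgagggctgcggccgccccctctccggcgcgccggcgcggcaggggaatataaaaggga
Egln3: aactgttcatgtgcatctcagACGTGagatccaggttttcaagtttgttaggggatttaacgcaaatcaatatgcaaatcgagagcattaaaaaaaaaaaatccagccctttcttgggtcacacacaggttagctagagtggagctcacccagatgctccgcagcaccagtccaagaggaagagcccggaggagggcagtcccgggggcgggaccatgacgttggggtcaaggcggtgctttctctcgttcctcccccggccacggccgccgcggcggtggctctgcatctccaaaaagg
Slc2a6: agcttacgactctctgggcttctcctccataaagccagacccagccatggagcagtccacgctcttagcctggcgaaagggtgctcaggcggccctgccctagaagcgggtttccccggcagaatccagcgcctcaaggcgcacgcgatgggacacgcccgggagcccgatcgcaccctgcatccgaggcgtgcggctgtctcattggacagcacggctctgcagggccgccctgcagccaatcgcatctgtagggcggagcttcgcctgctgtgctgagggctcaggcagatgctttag

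The Ldha promoter shown held ACGTG at 3 places, the nearest 34 bases before that internal start. That of P4ha1 held it once, 16 bases before the start. In the Egln3 promoter it lay 229 bases before the start. The promoter of Slc2a6 had no ACGTG but 4 matches of the alternative core GCGTG. Of the 34 members with a listed promoter (all but Slc2a3 and Ndrg1), 21 held ACGTG on either strand, or 61.8%, where 21.8% of all genes and 29.5% of the tested genes did. GCGTG was in 64.7% of the members, 35.2% of all genes and 55.9% of the tested genes. The 21 members with ACGTG had a median log2 fold change of -0.08, with 14 below 0, and the 13 without it had a median of -0.03, with 7 below 0. Over all tested genes the medians were 0.0007 with the motif (1365 of 2739 below 0) and 0.0046 without it (3226 of 6531 below 0). These matches are descriptions of the letters in the window and do not show binding.

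The summed level of the 18 enzymes from hexokinase to lactate dehydrogenase was 9106, 9160.1 and 7997 CPM across mTOR-/- replicates and 9537, 9632 and 10002 CPM across WT replicates. Every mTOR-/- library was below every WT library, and the mean was 8754 ± 656 CPM (SD, n = 3) against 9724 ± 246 CPM (SD, n = 3), a difference of -9.97%. The exact two-sided permutation test gave p = 0.1, below which a comparison of 3 with 3 cannot go. Without Gapdh the difference was -10.3%, and with each library left out in turn it ran from -12.1% to -6.07%, the latter without mTOR-/- replicate 3.

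Within the mTOR-/- group, replicate 3 stood apart for many members. It was the lowest of the 6 libraries for 18 of the 36 members, where it was the lowest for 27.7% of all tested genes. Relative to the mean of the other mTOR-/- libraries on the log2 scale, it lay at -0.97 for Vhl, -0.64 for Tpi1, -0.50 for Aldoa, -0.49 for Hk1 and -0.48 for Ldha. In the other direction it lay at 1.05 for Pfkfb4, 0.81 for Eno2, the neuronal enolase, 0.51 for Vegfa and 0.38 for Hk3. The range over the 3 libraries had a median of 0.38 log2 units among the members in the mTOR-/- group and 0.14 in the WT group, beside 0.43 and 0.29 over all tested genes. For 28 of the 36 members the mTOR-/- range was the wider one, and this held for 67.5% of tested genes. The cause was not tested.

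Levels of different genes were compared per length, as TMM CPM per kilobase of the merged exons of GENCODE M21. In WT cells the highest were Aldoa at 502.2 ± 32.7, Pgam1 at 428 ± 12.9 and Pkm at 400.4 ± 9.33 CPM per kilobase (SD, n = 3), whose values across WT replicates did not overlap. Ldha and Pgk1 followed, with overlapping values. Ldhb was lowest, at 0.75 CPM per kilobase, so that per length Ldhb was at 0.0024 of the level of Ldha. Within several families 1 isoform dominated per length in WT cells: Hk3 was at 5.03 times the level of Hk2, Aldoc at 0.00683 of Aldoa and Eno2 at 0.0343 of Eno1. Slc2a3 was at 0.29 of Slc2a1, Pfkp at 0.441 of Pfkl, Slc16a3 at 1.65 times Slc16a1 and Egln3 at 2.51 times Egln1. By the deposited FPKM, which use other gene lengths, Slc16a3 was at 0.993 of Slc16a1 and Eno2 at 0.0184 of Eno1, so the order of the lactate carriers depends on the length used.

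**Figure D3:**
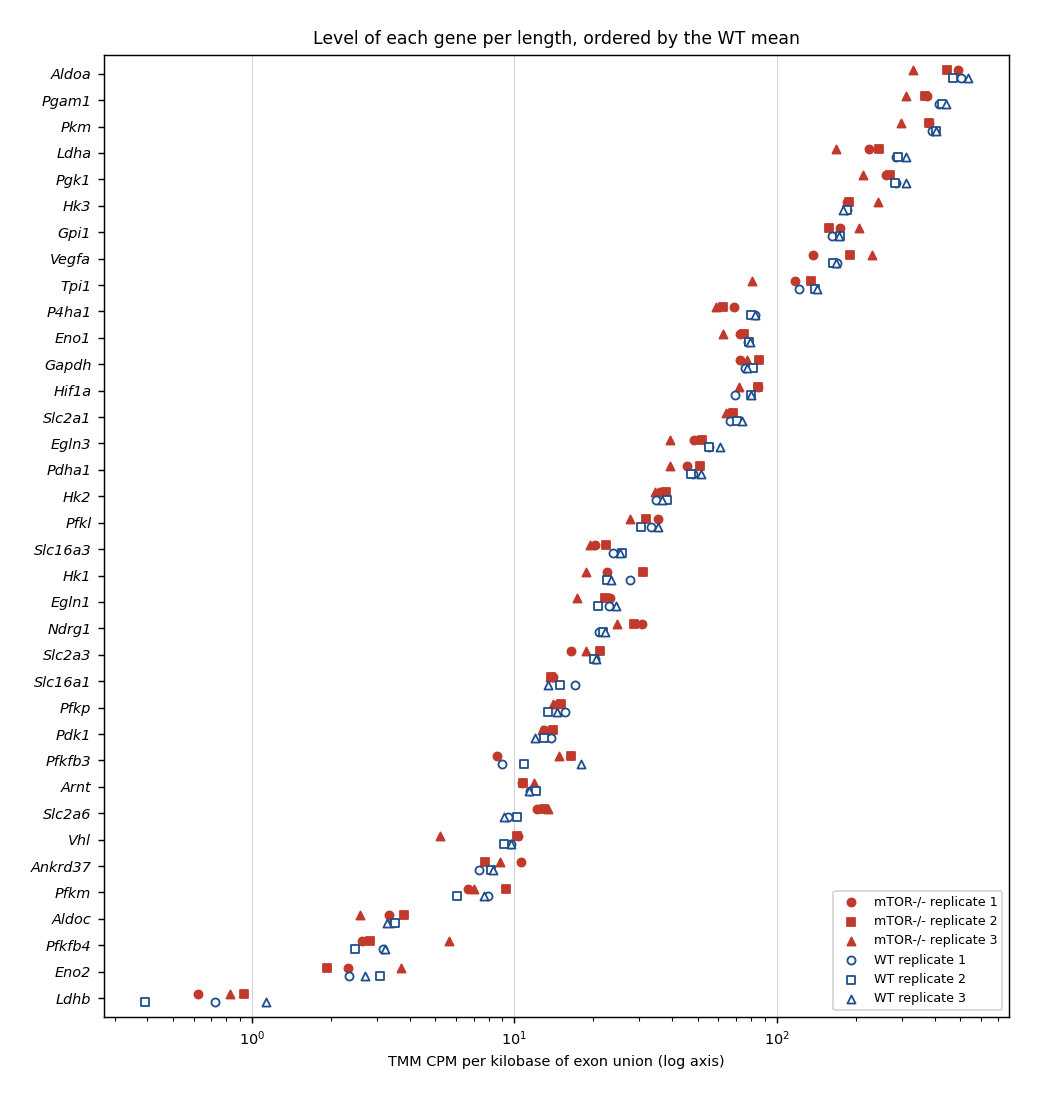
Level of each of the 36 genes (x axis, TMM CPM per kilobase of merged exons, log axis) ordered by the WT mean (y axis), with 1 symbol per library, red for mTOR-/- and blue for WT. Aldoa is highest at 502.2 and Ldhb lowest at 0.75 CPM per kilobase in WT.

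The ratio between isoforms within a library does not depend on library scaling. Of 12 such ratios, tested by an exact two-sided permutation test with Benjamini-Hochberg adjustment over the 12, none passed, and 3 against 3 libraries cannot reach a p under 0.1. The groups did not overlap for 2 ratios. The log2 ratio of Slc2a6 to Slc2a1 was -2.57, -2.52 and -2.39 across mTOR-/- replicates and -2.94, -2.92 and -3.14 across WT replicates, a difference of 0.50 (exact permutation p = 0.1, adjusted p = 0.6). That of Egln3 to Egln1 was 0.63, 0.79 and 0.75 against 0.84, 0.97 and 0.88, a difference of -0.17 (exact permutation p = 0.1, adjusted p = 0.6).

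**Figure D4:**
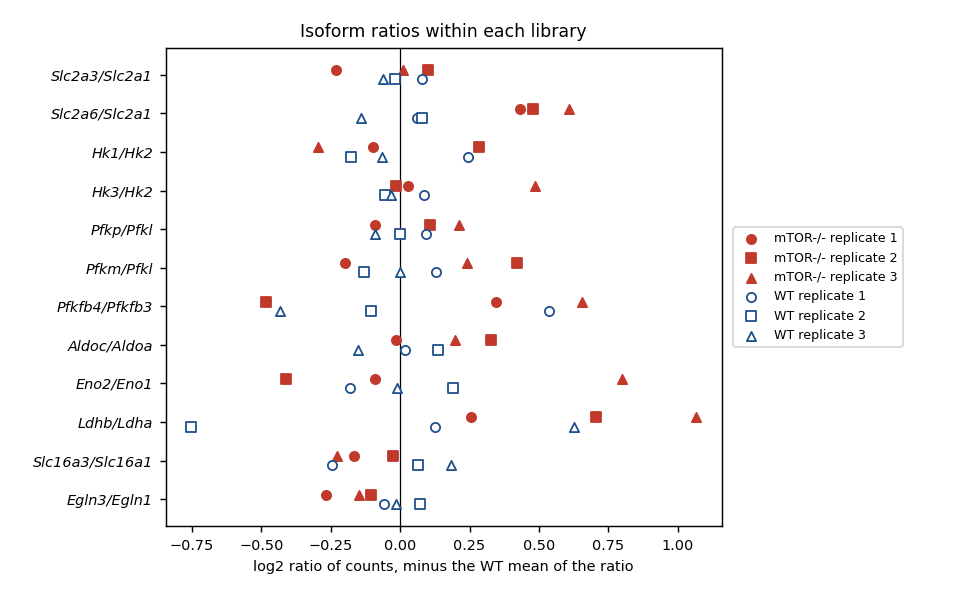
Log2 ratio of counts minus the WT mean of that ratio (x axis) for 12 isoform pairs (y axis) in each library, red for mTOR-/- and blue for WT. The groups are apart for Slc2a6 over Slc2a1 and for Egln3 over Egln1, and overlap for the other 10.

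Of 76 further genes of glycolysis, pyruvate entry and the HIF-1 pathway, 73 were in the table and 61 were tested. With edgeR's quasi-likelihood test 2 passed an adjusted p of 0.05, or 3.28% beside 4.04% of all tested genes, and none of them the fold of 2. Mpc1, a subunit of the carrier that takes pyruvate into mitochondria (chromosome 17, 8282904 to 8297661), had 219, 249 and 271 counts across mTOR-/- replicates and 478, 465 and 431 across WT replicates. All mTOR-/- libraries were below WT, and Mpc1 fell by 0.74 ± 0.14 (SE) on the log2 scale (adjusted p = 0.0198). Eno3, the muscle enolase (chromosome 11, 70657202 to 70662513), had 161, 169 and 223 counts against 98, 122 and 106, and rose with a log2 fold change of 0.92 ± 0.20 (SE, adjusted p = 0.0375). When single libraries were omitted, log2 fold changes were -0.80 to -0.69 for Mpc1 and 0.77 to 0.99 for Eno3, while the adjusted p was 0.0188 to 0.0925 for Mpc1 and 0.0524 to 0.152 for Eno3. Mpc1 passed only without mTOR-/- replicate 2 or 3, and Eno3 in none of these fits. An unadjusted p under 0.05 was reached by 15 of the 61 (24.6% beside 21.2% of tested genes), of which 13 were lower (21.3% beside 9.52%) and 2 higher (3.28% beside 11.7%). Among the 27 other HIF-1 targets tested, 19 had log2 fold changes below 0, or 70.4% beside 49.4% of all tested genes. Their median was -0.15. At an unadjusted p under 0.05 by edgeR's quasi-likelihood test there were 7, all lower (25.9% beside 9.52%). None of these 7 passed the adjusted threshold. The 14 other glycolysis genes tested had 8 above 0, a median of 0.081, and 2 lower and 2 higher at that unadjusted p. Medians were -0.19 over the 11 pyruvate entry genes tested and -0.14 over the 9 other HIF-1 regulators.

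**Figure D5:**
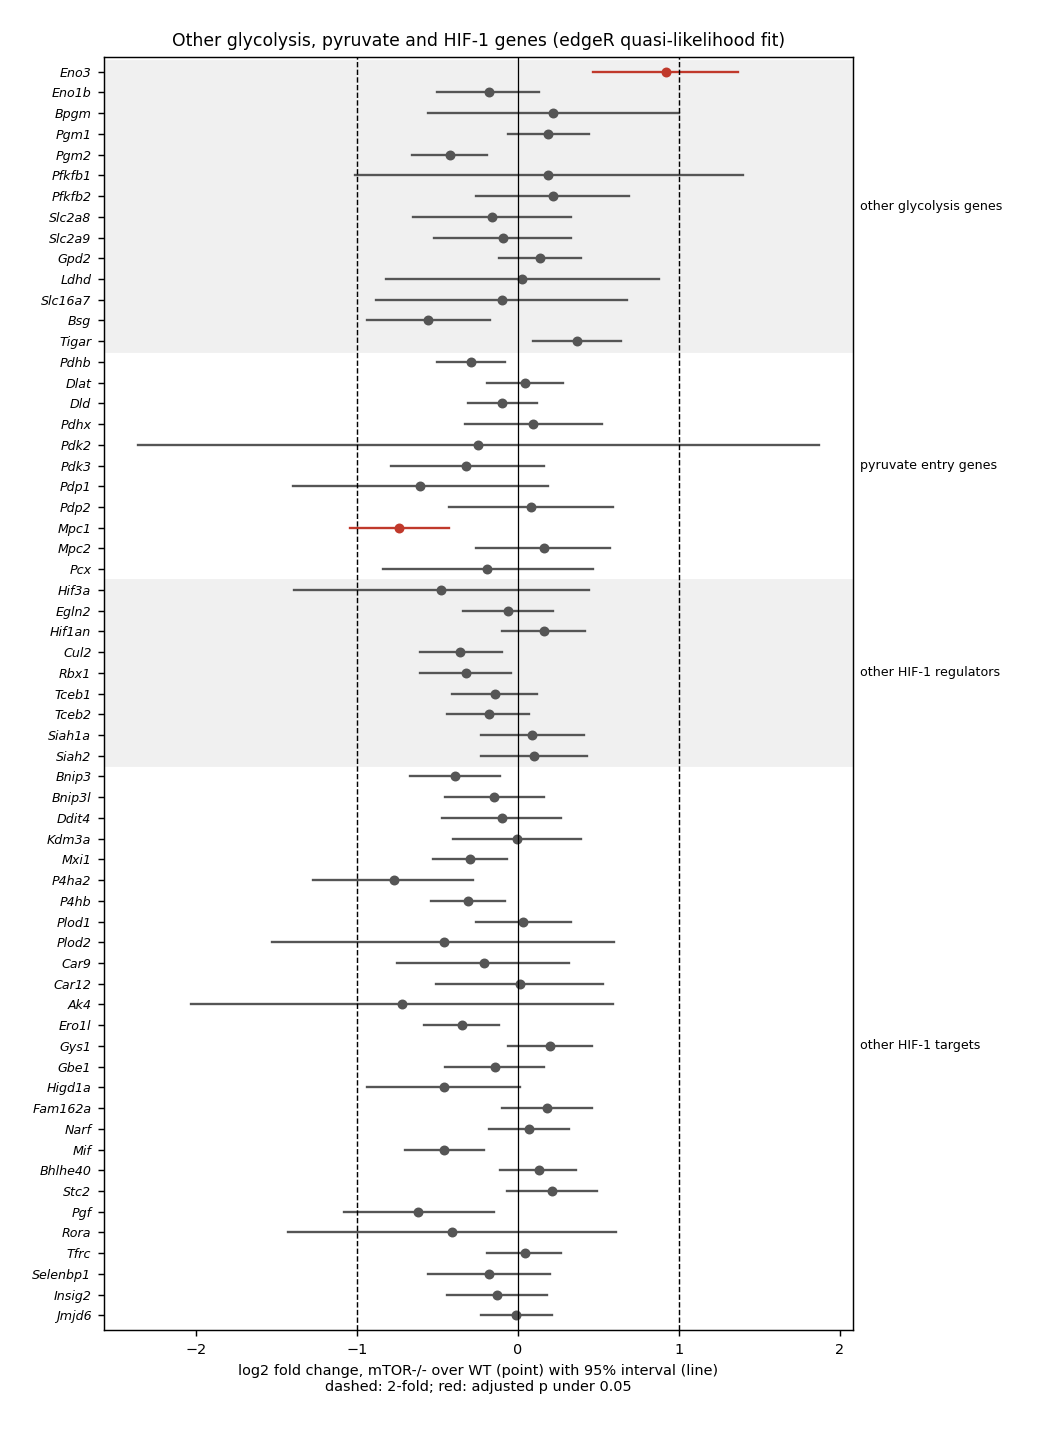
Log2 fold change (x axis, mTOR-/- over WT) with 95% interval of the tested genes of the further list (y axis), by class. Mpc1 at -0.74 and Eno3 at 0.92 are the genes with an adjusted p under 0.05.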

How the data were processed

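RNA was sequenced from sorted M-MDSCs of 3 mTOR-/- and 3 WT samples. The authors deposited whole-number read counts per gene and FPKM values. Per the paper they aligned reads to mm10 with Bowtie2 and counted with HTSeq, while the submitters' processing notes name HISAT2 2.0.4, StringTie 1.3.0, GRCm38.p4 and mm9. The annotation release and strand setting are not given in the sources used here, and without strand, reads of a gene and of one antisense to it cannot be told apart. The deposited FPKM served to pick the most expressed gene of each role, to compute the gene length they imply and to compare orders of level. Columns of the authors' own comparison (group means, fold changes, p-values) were not used, nor were 24 columns of per-sample values that repeat others.

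Counts were analysed with R 4.3.3 and edgeR 4.0.16 (limma 3.58.1). filterByExpr (minimum count 10, minimum total 15) kept 12537 of 34745 genes. Scaling was by TMM, and edgeR's quasi-likelihood test used Benjamini-Hochberg adjustment at 0.05 and a 2-fold change. The biological coefficient of variation was 19%. Single values were compared by exact permutation tests. DESeq2 1.42.0, edgeR's exact test, other scalings and filters, a replicate block and left-out libraries were alternatives. Same-numbered libraries did not deviate together (correlations -0.076, -0.025 and -0.061). The labels do not say whether the numbers pair samples, and with 3 libraries per group these correlations cannot exclude it.

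Genes given in full were to be members with an adjusted p under 0.05, members with non-overlapping groups and an absolute log2 fold change of at least 0.5, and the member of highest mean FPKM in each role, of which only the last kind occurred. The members and lists were chosen with earlier results of these data known. Gene positions come from the deposited tables (mm10), and 30 members had the same start and end in GENCODE M21. Promoters were taken from RefSeq.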

Additional observations from a re-analysis of the deposited data

How the results depend on the processing

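No member was called with a 2-fold change under any of the alternatives run. At an adjusted p under 0.05 alone, 4 members were called by DESeq2, beside 9.13% of all genes, and 2 by edgeR's exact test, beside 7.98%. There was 1 without a filter on low counts (694 of 17309 genes called) and 1 with at least 10 counts in every sample (518 of 11446). With a library left out there were 0 to 1, where 173 to 513 of all genes were called. Of the further pathway genes, of which 61 were tested in the main fit, 8 were called by DESeq2, beside 9.13% of all genes. The exact test called 7 of them, beside 7.98% of all genes. The count was 4 with at least 10 counts in every sample and 0 to 3 with a library left out. With no fold threshold the main fit called 2, or 3.28% beside 4.04% of all tested genes. With a 2-fold change the count for these genes was 0 to 1 with a library left out, the call being P4ha2. With the replicate number as a block, 0 members and 0 further genes were called, beside 2.23% of all genes. The labels do not say that the numbers pair the libraries. Of 251 member values under alternatives other than a left-out library, 248 kept their direction. The 3 that did not were small, -0.0044 for Pfkp and -0.0092 for Gapdh without a filter, and -0.0022 for Gapdh with at least 10 counts in every sample. With a library left out, 15 members changed direction in at least 1 fit and 21 kept theirs in every setting, and 9 changed on leaving out mTOR-/- replicate 3.
Their log2 fold changes ran from -0.25 to 0.12 for Hk1, -0.058 to 0.02 for Hk2, -0.034 to 0.15 for Gpi1, -0.15 to 0.024 for Pfkl, -0.077 to 0.18 for Pfkm, -0.049 to 0.056 for Pfkp, -0.14 to 0.41 for Pfkfb3, -0.12 to 0.52 for Pfkfb4, -0.22 to 0.055 for Aldoc, -0.072 to 0.055 for Gapdh, -0.35 to 0.15 for Eno2, -0.22 to 0.51 for Ldhb, -0.016 to 0.077 for Pdk1, -0.31 to 0.099 for Vhl and -0.038 to 0.32 for Vegfa. The differences in isoform ratio ran from -0.11 to 0.054 for Slc2a3 over Slc2a1, -0.2 to 0.093 for Hk1 over Hk2, -0.07 to 0.5 for Pfkfb4 over Pfkfb3 and -0.25 to 0.35 for Eno2 over Eno1. The median member change ran from -0.12 to -0.03. The cause of these shifts was not tested. With 9 to 25 counts, Ldhb is limited by depth.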

Other observations

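The deposited FPKM values ordered the genes differently from counts per kilobase of merged exons. The gene length that the FPKM values imply was 0.52 times the merged exon length for Pkm and 2.74 times for Eno2, and for Gapdh it was 8626 bases against 4133. It was over 1.5 times the merged exon length for 14 of the 36 members, with a median of 1.23 over all tested genes. Pkm was the first of the 36 by FPKM in WT cells and the third per kilobase of merged exons, and Aldoa the third and the first.

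Of the further pathway genes, Mif, a cytokine gene known as a HIF-1 target, had 1866, 2082 and 1616 counts across mTOR-/- replicates and 2825, 2854 and 2862 across WT replicates (log2 fold change -0.46, adjusted p = 0.0518 by edgeR's quasi-likelihood test). For Mif the adjusted p was 0.00738 by DESeq2, 0.0145 by edgeR's exact test and 0.113 with the replicate block. With edgeR's quasi-likelihood test it was 0.0358 without a filter and 0.046 with at least 10 counts in every sample. With a library left out it passed only without mTOR-/- replicate 2 (0.0422) or 3 (0.0491). Ero1l, an oxidase of the endoplasmic reticulum, had 21226, 21932 and 19709 against 29401, 30366 and 29710 counts (log2 fold change -0.35, adjusted p = 0.0918). By DESeq2 that p was 0.00643, by the exact test 0.0386 and with the block 0.288. The groups did not overlap for either gene, both lower, as for 13.9% of all tested genes. Both were chosen after their values were seen.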
